A study of Mus musculus with 2 samples.

Results

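Imprinted genes were followed through the heart of the B6CASTF1/J mouse as a set of 34 listed genes, found by symbol among the 55536 genes of the quantification tables. Every listed gene was present in the tables, and the set covered 16 imprinted domains on 9 chromosomes. An imprinted gene is transcribed from the copy inherited from only 1 parent, in all or some tissues. The choice of copy is set by DNA methylation laid down in the egg or the sperm at an imprinting control region, which usually governs several neighbouring genes. Within a domain a protein-coding gene is often paired with a long non-coding RNA expressed from the opposite parental copy. Many such genes act on fetal growth, placental supply and metabolism, and a number of them are known to be turned down in most organs after birth.

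The samples were hearts of 2 female B6CASTF1/J mice aged 25 days, labelled replicate 1 and replicate 2, with no second group to compare. B6CASTF1/J is the first generation of a cross of a C57BL/6J mother with a CAST/EiJ father, so the maternal copy of each gene carries C57BL/6J sequence and the paternal copy CAST/EiJ sequence. Total RNA of whole heart tissue was sequenced from 300 ng per library with added ERCC spike-in transcripts, and reads were assigned to the mm10 genome, which is C57BL/6J sequence. A donor label was shared by both samples, which nevertheless carry their own animal numbers, and they were treated as 2 animals. No reads were counted by parental copy, so the copies named below are background from other mouse work and were not measured. Levels are in TPM (transcript abundance scaled for length and to a fixed library total) of the alignment-based tables unless the read-based tables are named, and a ratio is replicate 1 over replicate 2 of scaled counts. Adjusted p-values come from an exact binomial test on the counts of the 2 libraries, corrected over all 15839 genes compared. They compare libraries of a single group and cover counting error only, so they say nothing about a condition.

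Expected counts over all entries came to 43190646 in replicate 1 and 42954475 in replicate 2. All 6 cardiomyocyte markers were detected, with summed levels of 31114 and 32227 TPM in replicates 1 and 2. The libraries were not alike throughout: all 8 liver markers were higher in replicate 2 and all but Ahsg met the full criteria given further on, with summed levels of 7.28 TPM in replicate 1 and 33.55 TPM in replicate 2, and Serpina1c and Fgb were at 0 counts in replicate 1. All 6 cell division markers were higher in replicate 1, at a summed 4.93 TPM against 1.87 TPM in replicate 2, and Top2a and Ccna2 met those criteria. Of the nuclear long RNAs Malat1, Neat1, Xist and Miat, a list added once values were known, the 3 with enough counts were all higher in replicate 1. Median log2 ratios of further cell lists were 0.15 for fibroblasts, 0.16 for endothelial cells, 0.28 for smooth muscle and pericytes and 0.25 for mesothelium. They were 0.32 for macrophages, 0.05 for erythroid cells and -0.48 for brown fat (2 genes compared), against -0.13 for cardiomyocytes. In whole tissue, fewer cells of a type and less RNA per cell cannot be told apart.

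Of the 34 imprinted genes, 21 were detected, meaning 1 TPM or more in both animals, where 21.5% of all genes, 49.9% of protein-coding genes and 3.01% of lincRNA, antisense and processed transcript genes reached that level. The detected imprinted genes had a median of 8.04 TPM, close to the 8.565 TPM of all detected genes. Gnas, which encodes the stimulatory G protein subunit, held 56.9% of the summed imprinted TPM in replicate 1 and 58.1% in replicate 2. Next in order were Igf2, Ube3a, Snrpn, Igf2r and Grb10, between 35.7 and 55.3 TPM on average. Ube3a at 49.9 ± 1.41 TPM and Snrpn at 48.3 ± 1.95 TPM (mean ± SD, n = 2 animals) differed by 0.05 ± 0.02 in log2 TPM, Ube3a being higher in both animals, and Ube3a was lower by 0.18 read-based. Another 13 genes lay below 1 TPM in at least 1 animal, and 4 of these, Phlda2, Dio3, Magel2 and Rasgrf1, had 0 counts in both. Of the 9 domains with more than 1 gene, 6 held at least 1 gene below the detection level.

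**Figure D1:**
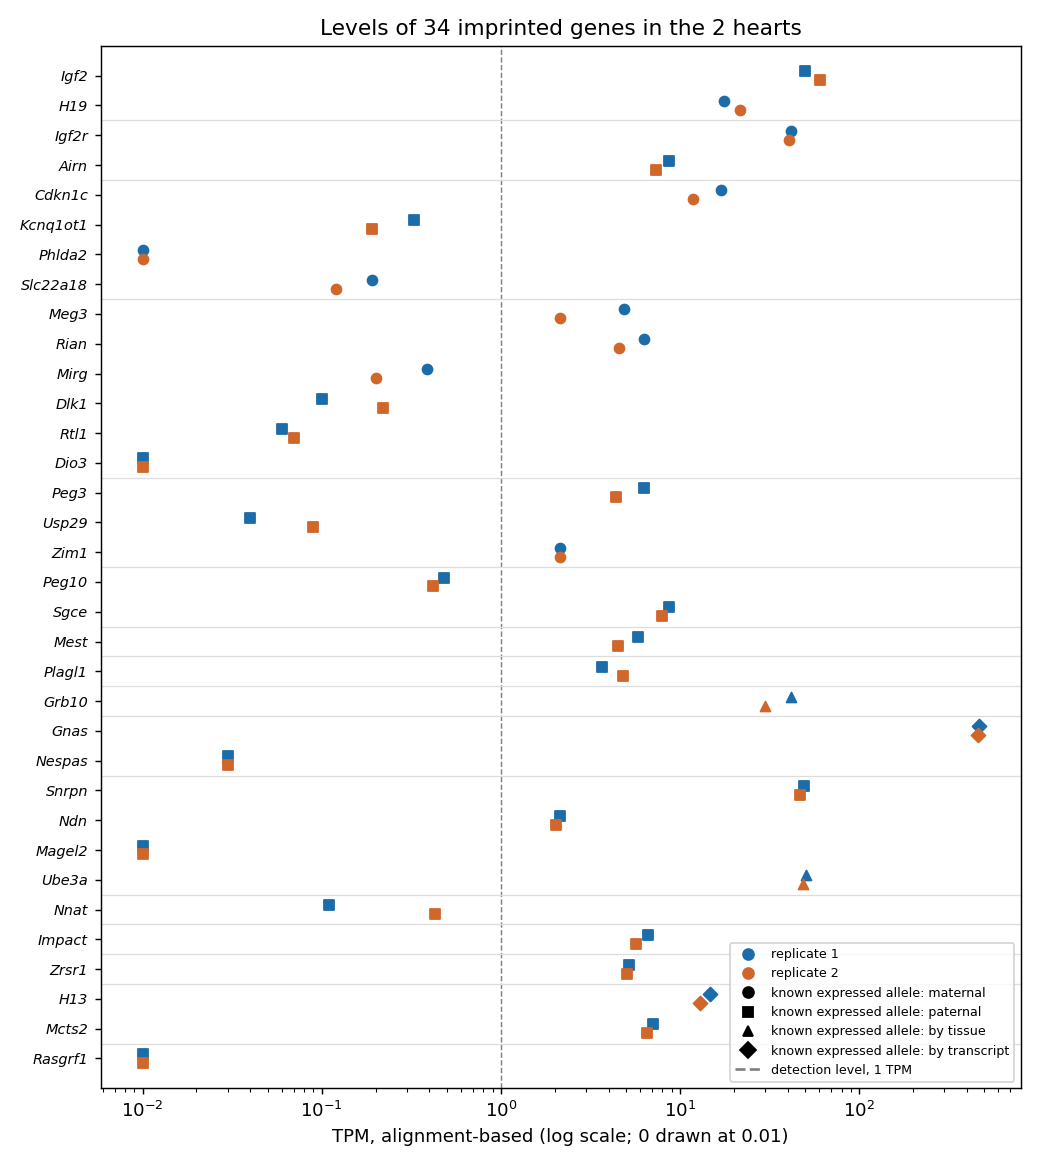
Level in TPM (log axis) of each of the 34 imprinted genes in replicate 1 (blue) and replicate 2 (orange), grouped by domain between the grey lines, with the marker shape giving the parental copy known to be expressed. Gnas at 466.57 and 460.55 TPM lies apart at the top of the scale, 21 genes lie right of the dashed 1 TPM line in both animals, and the 4 genes at 0 are drawn at the left edge.

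Start sites separate the imprinted forms of several genes, and the sequences around them show which forms the values below refer to. The first pair is from Gnas, where an upstream start makes the neuroendocrine secretory protein Nesp from the maternal copy and a downstream start makes Gs alpha from both copies in most tissues. Each window runs from 250 bases before to 50 bases after a RefSeq start (build GRCm38.p6, the assembly of mm10), written in the direction of transcription. They lie at chr2:174284070-174284369 and chr2:174329756-174330055 on the plus strand. Capitals in all windows mark the letters TGCCGC or their reverse complement GCGGCA, the core recognised by the imprint-keeping zinc finger protein ZFP57 when methylated.
Gnas Nesp start: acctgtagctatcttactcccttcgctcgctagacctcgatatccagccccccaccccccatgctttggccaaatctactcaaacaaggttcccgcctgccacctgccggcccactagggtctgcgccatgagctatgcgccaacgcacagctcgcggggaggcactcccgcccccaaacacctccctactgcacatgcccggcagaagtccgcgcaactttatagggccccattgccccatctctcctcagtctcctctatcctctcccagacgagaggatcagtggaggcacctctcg
Gnas Gs alpha start: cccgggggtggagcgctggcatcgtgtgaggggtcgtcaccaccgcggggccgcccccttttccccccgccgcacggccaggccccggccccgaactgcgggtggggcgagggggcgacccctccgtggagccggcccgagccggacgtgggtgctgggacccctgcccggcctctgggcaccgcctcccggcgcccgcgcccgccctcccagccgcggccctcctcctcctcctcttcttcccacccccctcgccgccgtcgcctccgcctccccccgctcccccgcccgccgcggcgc
The Gs alpha window held 40 CG pairs, a number reached by 3.91% of all 32851 mouse windows, and the Nesp window held 16. Neither contained the ZFP57 letters.

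Grb10, an adaptor that dampens insulin and insulin-like growth factor receptor signalling, has an upstream start used by the maternal copy in most tissues. In neurons the paternal copy is used, from a start farther downstream. Windows of the upstream start and of a downstream start are at chr11:12037371-12037670 and chr11:12027922-12028221 on the minus strand. Whether this downstream start is the neuronal one was not tested.
Grb10 upstream start: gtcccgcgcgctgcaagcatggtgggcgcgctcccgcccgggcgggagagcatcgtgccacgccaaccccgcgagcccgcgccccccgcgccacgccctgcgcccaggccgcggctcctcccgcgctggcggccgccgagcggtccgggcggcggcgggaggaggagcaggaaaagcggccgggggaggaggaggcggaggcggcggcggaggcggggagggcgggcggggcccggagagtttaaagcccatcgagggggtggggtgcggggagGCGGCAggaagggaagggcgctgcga
Grb10 downstream start: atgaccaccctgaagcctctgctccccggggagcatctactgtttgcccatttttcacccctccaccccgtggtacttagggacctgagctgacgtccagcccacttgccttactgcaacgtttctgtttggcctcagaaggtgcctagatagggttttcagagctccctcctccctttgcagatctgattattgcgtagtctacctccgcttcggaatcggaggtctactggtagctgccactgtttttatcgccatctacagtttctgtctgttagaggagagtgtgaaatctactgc
The upstream window held 45 CG pairs and 1 ZFP57 match, the downstream window 9 CG pairs and no match.

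Snrpn, a core protein of the splicing machinery and a paternally expressed gene, is shown for the 2 annotated starts to which the quantifications gave its RNA. They are at chr7:60140176-60140475 and chr7:60005150-60005449 on the minus strand.
Snrpn upstream start: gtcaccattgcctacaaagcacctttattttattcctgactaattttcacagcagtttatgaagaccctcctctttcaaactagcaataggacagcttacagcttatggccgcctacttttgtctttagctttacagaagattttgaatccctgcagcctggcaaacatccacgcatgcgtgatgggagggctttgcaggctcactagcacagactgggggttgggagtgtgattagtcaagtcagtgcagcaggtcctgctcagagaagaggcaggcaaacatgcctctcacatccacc
Snrpn downstream start: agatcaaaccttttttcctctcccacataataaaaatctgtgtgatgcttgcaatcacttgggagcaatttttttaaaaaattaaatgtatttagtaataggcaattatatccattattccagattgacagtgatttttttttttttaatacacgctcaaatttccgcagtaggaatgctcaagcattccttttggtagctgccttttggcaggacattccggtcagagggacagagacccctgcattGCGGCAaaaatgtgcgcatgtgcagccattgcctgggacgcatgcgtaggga
They held 3 and 7 CG pairs, and the downstream window alone had a ZFP57 match. The last window, at chr7:6730370-6730669 on the minus strand, is the start of Peg3, whose neighbour Usp29 begins 147 bases away in the opposite direction.
Peg3 start facing Usp29: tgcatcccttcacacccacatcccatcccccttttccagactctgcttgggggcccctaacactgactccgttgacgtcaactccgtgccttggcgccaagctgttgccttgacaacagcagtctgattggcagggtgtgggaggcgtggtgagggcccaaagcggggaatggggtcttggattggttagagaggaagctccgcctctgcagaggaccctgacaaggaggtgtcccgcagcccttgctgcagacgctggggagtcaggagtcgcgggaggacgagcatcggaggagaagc

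RefSeq windows were matched for 27 of the 34 imprinted genes, 40 windows in all. TGCCGC or GCGGCA occurred in 10 of the 40, which is 25% of them, and in 11.6% of all 32851 windows. Overlapping windows were counted separately, as for Mest at chr6:30737800-30738099 and chr6:30737803-30738102, which share their matches. The 9 genes with a match were Grb10, Igf2, Mcts2, Meg3, Mest, Nnat, Plagl1, Snrpn and Zim1. A letter pattern of the factor YY1, AANATGGCG on either strand, occurred in 1 of the 40 windows, that of Ube3a, and in 2.38% of all. None of the 40 held both patterns. The imprinted windows had a median of 13.5 CG pairs against 7 over all windows. TGCCGC itself holds a CG pair, and its share was not adjusted for this. These are counts of letters in fixed windows and say nothing of binding or methylation in the heart.

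Gnas had 466.57 TPM in replicate 1 against 460.55 TPM in replicate 2, rank 140 of all genes (chromosome 2, positions 174284320 to 174346744 of mm10). Nearly all of it came from the Gs alpha start, at 461.32 and 453.98 TPM in replicates 1 and 2. Transcripts from the Nesp start stood at 0.09 and 0.03 TPM, and those from the start of XLas, the paternally expressed large form, at 0.02 and 0 TPM. Both imprinted protein forms were therefore near the floor of the measurement beside the Gs alpha level. The exon 1A start, known as a paternal non-coding form, was less certain. It stood at 1.55 and 3.32 TPM in the alignment-based tables. Of this, an entry annotated as coding held 0.75 and 0.82 TPM, from 96.01 and 109.35 counts. In the read-based tables this start took 19.6% of the gene in replicate 1 and 26.2% in replicate 2. Most of that read-based share was a single processed transcript, at 111.8 and 155.5 TPM read-based and 0 and 1.04 TPM alignment-based. Nespas, the paternal antisense RNA of the Nesp start, had 2 counts in replicate 1 and 1 in replicate 2. It overlaps Gnas on the opposite strand, and these few counts are uncertain without the strand setting.

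**Figure D2:**
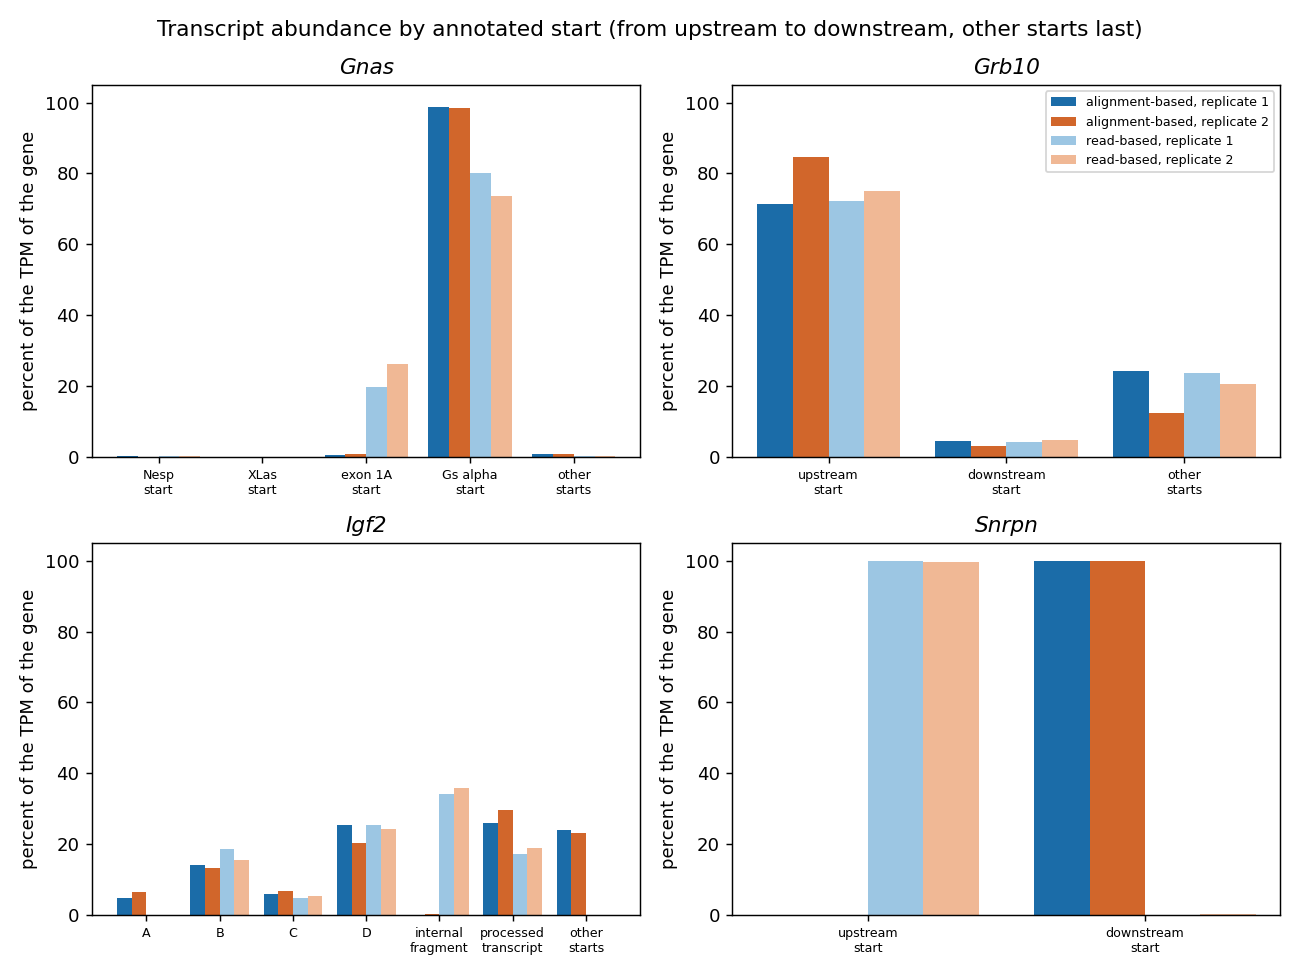
Share of the TPM of Gnas, Grb10, Igf2 and Snrpn from each annotated start, as bars in percent of the gene from 0, in both animals and by both quantifications. Gs alpha and the upstream Grb10 start led everywhere, while Snrpn was placed at the downstream start alignment-based (100%) and at the upstream start read-based (100% and 99.8%), and Igf2 was spread over many starts.

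Igf2 and H19 share enhancers on chromosome 7. On the maternal copy the boundary factor CTCF binds the control region between them, and the enhancers act on H19. On the paternal copy this boundary is missing, and they act on Igf2. Igf2, a fetal growth factor, had 50.24 TPM in replicate 1 against 60.27 TPM in replicate 2 (positions 142650766 to 142666816). H19, a long non-coding RNA that hosts a microRNA, stood at 17.69 and 21.79 TPM (positions 142575529 to 142578143). Both were lower in replicate 1, without overlap of their deposited credibility intervals. The ratio was 0.822 (95% interval 0.784 to 0.862) for Igf2 and 0.704 (0.651 to 0.761) for H19, with adjusted p of 3.03e-14 and 1.28e-17 by the exact binomial test over all genes. Igf2 exceeded H19 by 1.48 ± 0.03 on the log2 scale of TPM + 0.1 (mean ± SD, n = 2 animals), while the intervals of their count ratios did not overlap, with the lower ratio for H19. Read-based, Igf2 had 58.7 TPM in replicate 1 against 71.8 TPM in replicate 2, and H19 19.1 and 28.8 TPM. The liver markers were likewise lower in replicate 1, and their part in these ratios was not tested.

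Igf2 RNA was divided among 9 annotated transcripts. The start farthest downstream, here called D, held 12.77 and 12.28 TPM, start B 7.10 and 8.04 TPM, start C 3.00 and 4.04 TPM, and the start farthest upstream, A, 2.42 and 3.90 TPM. The leading entry in both animals was a processed transcript that begins inside the gene, at 25.8% and 29.7% of it, and a short entry that begins just upstream of B held 23.9% and 23.1%. The order depended on the quantification: read-based, an internal fragment led at 34.04% and 35.9%, while start A and the short entry upstream of B were listed at 0. H19 came mainly from its longest annotated form, at 69.9% and 83.55%. The antisense entry Igf2os had 6 counts in replicate 1 and 4 in replicate 2, also uncertain without the strand setting.

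Igf2r is the receptor that takes IGF2 from the cell surface to lysosomes, and Airn is the paternal antisense RNA that begins inside it and silences it on that copy. Igf2r stood at 41.72 and 40.46 TPM in replicates 1 and 2 (chromosome 17, positions 12682406 to 12769664), with 98.6% and 98.8% from a single transcript. Airn stood at 8.70 and 7.38 TPM, from 297 and 259 counts (positions 12741311 to 12860136). Igf2r exceeded Airn by 2.34 ± 0.13 and was below Igf2 by 0.42 ± 0.22 in log2 TPM. The order of Igf2 and Igf2r rests on partial entries of Igf2. Its processed transcript held 25.8% and 29.7% of Igf2 TPM, and its short entry upstream of start B 23.9% and 23.1%. The main Airn start held 71.5% and 70.5% of its TPM. Airn is uncertain, because the genes overlap on opposite strands and the strand setting of the counting is not given in the sources used here. It was the detected imprinted gene that differed most between quantifications, read-based at 15.8 and 12.9 TPM.

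The insulin-like growth factor axis of 20 genes gave the setting for Igf2, Igf2r and Grb10. Of its genes 14 were detected, led by Igfbp7 at 119.56 and 93.85 TPM in replicates 1 and 2, the insulin receptor Insr at 46.78 and 47.99 TPM, Igfbp5 at 43.07 and 33.82 TPM, Igfbp4 at 33.79 and 29.71 TPM and the docking protein Irs1 at 19.14 and 13.33 TPM. The adult ligand Igf1 was far below Igf2, at 6.09 and 6.13 TPM, and the receptor Igf1r stood at 7.25 and 6.72 TPM. Of 17 genes compared, 7 were higher in replicate 1 and 2 higher in replicate 2 at an adjusted p under 0.05 by the exact binomial test, where 10.3% of all genes passed in each direction. Irs1 had the largest ratio of the 7, 1.35, and no gene of the axis reached 2-fold. Igf2bp1, Igf2bp2 and Igf2bp3 bind Igf2 messenger RNA; only Igf2bp2 was detected, at 1.96 and 1.65 TPM.

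Grb10 had 41.63 TPM in replicate 1 against 29.81 TPM in replicate 2 (chromosome 11, positions 11930508 to 12038683). Its upstream, maternal-type start held 29.77 and 25.24 TPM, and the downstream start shown above 1.82 and 0.91 TPM. The upstream start thus held 71.5% and 84.7% of the gene and the downstream start 4.37% and 3.05%, with 72.3% and 75.0% for the upstream start read-based. Another group of starts, at positions 12026324 to 12026732 and downstream of both, held 22.3% and 10.8%, and 6.54% and 3.95% read-based. Which copy uses the downstream start or that group was not assigned, and neither was shown to be the neuronal start. Of 6 neuron markers only Stmn2 was detected. The TPM values of the animals lay farther apart than the counts, 5444 and 4613, whose ratio was 1.14 (1.10 to 1.19, adjusted p = 6.83e-10, exact binomial test). In the group at positions 12026324 to 12026732, an entry of 430 bases took 8.65 TPM in replicate 1 and 2.82 TPM in replicate 2. It had 96.8 and 32.6 counts, and was at 0 read-based.

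In the Kcnq1 domain, Cdkn1c was the only detected gene of 4. Cdkn1c, an inhibitor of cyclin-dependent kinases expressed from the maternal copy, had 16.99 TPM in replicate 1 against 11.89 TPM in replicate 2, with counts of 781 and 624 and a ratio of 1.21 (1.09 to 1.35, adjusted p = 0.00295, exact binomial test). Phlda2, which restrains placental growth, had 0 counts in both animals. A level of 3 counts would be 0.222 TPM in replicate 1 and 0.215 TPM in replicate 2, and the deposited credibility intervals reach 0.564 and 0.550 TPM. The transporter gene Slc22a18 had 8 and 6 counts. These 3 maternal genes are known to be kept silent on the paternal copy through Kcnq1ot1, a long antisense RNA within Kcnq1. Kcnq1ot1 looked low in TPM, 0.33 and 0.19, yet had 1041 counts in replicate 1 and 610.07 in replicate 2, since its annotated length is 93092 bases. Its ratio was 1.65 (1.49 to 1.83, adjusted p = 8.28e-22, exact binomial test), and Kcnq1 itself, at 14.40 and 14.38 TPM, did not pass (adjusted p = 0.111, exact binomial test). Reads of Kcnq1 introns and of Kcnq1ot1 cannot be separated without strand, and these counts are uncertain for that reason. Malat1, Neat1 and Xist, other nuclear RNAs, had ratios of 1.60, 2.52 and 1.24, and their part in the Kcnq1ot1 ratio was not tested.

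The Dlk1-Dio3 domain on chromosome 12 was divided by kind of gene. Its maternal non-coding RNAs Meg3 and Rian were detected, Rian being host to small nucleolar RNAs, and Mirg, host to microRNAs, was not. Its paternal protein-coding genes were at or near 0: Dlk1, a membrane protein related to Notch ligands, had 5 and 6 counts, Rtl1, a placental gene derived from a retrotransposon, had 13 and 16, and Dio3, which inactivates thyroid hormone, had 0 in both animals. Meg3 had 4.86 TPM in replicate 1 against 2.14 TPM in replicate 2 (236 and 121 counts, positions 109541001 to 109571726). Rian stood at 6.30 and 4.55 TPM (270 and 210 counts), and Mirg at 0.39 and 0.20 TPM (17 and 13 counts). All 3 non-coding RNAs were nominally higher in replicate 1. Malat1, Neat1 and Xist were higher there too, and their part in this was not tested. Above a mean count of 100, Meg3 had the largest ratio of any imprinted gene, 1.89 (1.51 to 2.37, adjusted p = 1.27e-07, exact binomial test). Rian at 1.25 (1.04 to 1.498) missed the threshold at an adjusted p of 0.0751 in the same test, and passed at 0.0336 with read-based counts. In log2 TPM, Meg3 exceeded Dlk1 by 3.72 ± 1.29 and Rian exceeded Rtl1 by 5.05 ± 0.39, both from few counts on the coding side. Transcripts of the main Meg3 start held 41.6% and 45.4% of the TPM. The 24 microRNA entries listed as hosted in imprinted genes were all at 0 in both animals. The counting shortens every entry by a fixed length, so entries as short as these can hardly receive counts. Their zeros do not show that the microRNAs were absent.

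Peg3 and Usp29 start head to head and were unequal in level. Peg3, a paternally expressed zinc finger protein known for its role in maternal behaviour and growth, had 6.29 TPM in replicate 1 against 4.42 TPM in replicate 2 (1423 and 1118 counts). Its ratio was 1.23 (1.14 to 1.33, adjusted p = 2.67e-06, exact binomial test). Usp29, a ubiquitin-specific protease gene, had 6 and 4 counts, and its relative Usp37 stood at 3.46 and 3.62 TPM. The maternal zinc finger gene Zim1, 33981 bases from Peg3 between starts, stood at 2.14 TPM in both animals, but at 1.95 and 3.41 TPM read-based. A processed transcript of 408 bases held 44.3% and 50.95% of Zim1 alignment-based, from only 9.9 and 11.76 counts. On the log2 scale Peg3 exceeded Usp29 by 5.04 ± 0.66 and Zim1 by 1.26 ± 0.35.

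Another pair with a shared start region, Peg10 and Sgce on chromosome 6, begins 99 bases apart. Sgce, the epsilon subunit of the sarcoglycan complex of muscle membranes, stood at 8.74 and 7.96 TPM in replicates 1 and 2, while Peg10, a retrotransposon-derived placental gene, stood at 0.48 and 0.42 TPM. Sgce exceeded Peg10 by 3.94 ± 0.02 in log2 TPM. Neither differed between the animals past the threshold.

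Among paternally expressed genes that stand alone in the set, Mest, an enzyme of the alpha/beta hydrolase family, stood at 5.84 and 4.54 TPM, and all of its alignment-based TPM came from the main start. Read-based, that start held 98.9% in replicate 1 and 62.8% in replicate 2, with 35.0% from the second upstream start in replicate 2. Mest was higher in replicate 1 with a ratio of 1.26 (1.09 to 1.46, adjusted p = 0.0121, exact binomial test), although its deposited intervals overlapped. Plagl1, a zinc finger regulator of other growth genes, stood at 3.68 and 4.79 TPM, and Impact, an inhibitor of the amino acid sensing kinase pathway, at 6.67 and 5.69 TPM. Neither of these passed the test. Nnat, a small membrane protein of the endoplasmic reticulum, had 4 counts in replicate 1 and 17 in replicate 2, a ratio of 0.228 with a wide interval of 0.0558 to 0.699 (adjusted p = 0.0228, exact binomial test). Blcap, in whose intron Nnat lies on the opposite strand, stood at 21.12 and 19.97 TPM. Without the strand setting, the few counts of Nnat are uncertain.

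The Prader-Willi and Angelman domain on chromosome 7 was carried by Snrpn and Ube3a. Snrpn stood at 49.63 and 46.87 TPM in replicates 1 and 2, and Ube3a, a ubiquitin ligase expressed from the maternal copy in neurons and from both copies elsewhere, at 50.85 and 48.86 TPM. Necdin (Ndn), a growth-restraining protein of neurons and muscle, stood at 2.14 and 2.03 TPM, and its neighbour Magel2 had 0 counts in both animals. Snrpn exceeded Ndn by 4.47 ± 0.01 in log2 TPM. Snhg14, the antisense RNA that covers Ube3a in neurons, stood at 3.76 and 3.34 TPM over its whole annotated length, from 319 and 283 counts. It overlaps Ube3a on the opposite strand, and its counts are uncertain without the strand setting. All alignment-based Snrpn TPM was placed on the transcript of the downstream start, whereas the read-based tables placed 100% and 99.8% on that of the upstream start. The start used by Snrpn was therefore not resolved by these tables. Snurf, made from the same transcript unit, stood at 122.38 and 115.47 TPM from 483.83 and 471.64 counts, but was listed at 0 TPM read-based in both animals. Its split from Snrpn rests on how shared reads were assigned. A short internal entry of 579 bases held 24.7% and 18.3% of Ube3a alignment-based and 41.2% and 35.6% read-based.

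Both retrocopies in the set, genes made by reverse transcription of another gene and inserted into a host intron, were detected. Mcts2, a copy of Mcts1 within H13, stood at 7.10 and 6.52 TPM, and its source Mcts1 at 15.53 and 14.19 TPM. H13, the signal peptide peptidase, stood at 14.82 and 13.03 TPM and exceeded Mcts2 by 1.02 ± 0.04 in log2 TPM. On the maternal copy H13 is known to run past Mcts2, and on the paternal copy, where Mcts2 is active, to end early. Transcripts that span Mcts2 held 89.3% and 91.2% of H13 TPM and those ending upstream of it 9.51% and 8.53%. Of the latter, an entry annotated as a retained intron held 0.95 and 0.64 TPM and a coding entry 0.46 and 0.47 TPM. These shares do not measure the parental copies. Zrsr1, a splicing factor copied from Zrsr2 into Commd1, stood at 5.20 and 5.10 TPM, with Zrsr2 at 3.44 and 3.10 TPM and Commd1 at 64.99 and 62.49 TPM. Only 44.7% and 47.1% of Zrsr1 TPM came from the gene start, and the rest from 1 entry that begins inside it. Reads shared between each copy and its source may have been split by the counting. Rasgrf1, a paternally expressed Ras exchange factor of brain, was listed at 0 counts alignment-based and had 9.46 and 6.22 read-based counts.

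Between the animals, 26 imprinted genes had enough counts for the comparison, a mean of 10, and none was counted as differing, which required an adjusted p under 0.05, a ratio of at least 2 and separate deposited credibility intervals. Over all genes 127 of 15839 met these conditions, 0.802%, of which 80 were higher in replicate 1 and 47 in replicate 2. At an adjusted p under 0.05 and any ratio, 12 of the 26 passed, against 20.6% of all genes compared, by the exact binomial test with Benjamini-Hochberg adjustment over all genes. Cdkn1c, Grb10, Kcnq1ot1, Meg3, Mest and Peg3 were higher in replicate 1. H19, Igf2 and Nnat were higher in replicate 2, as were Igf2r, Gnas and Ube3a, whose ratios of 0.964, 0.9504 and 0.947 turned to just above 1 when ERCC totals set the scale. Within mean counts of 100 to 10000, 9 of 21 imprinted genes passed, against 23.7% of 10866 genes. Separate intervals in addition left 7 genes, against 8.55% of all genes. Without adjustment 14 of the 26 had an exact binomial p under 0.05, against 30.3% of all genes. Over the 26 genes the median log2 ratio was 0.05, against -0.01 for all genes compared, and the median absolute log2 ratio was 0.17 against 0.14.

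**Figure D3:**
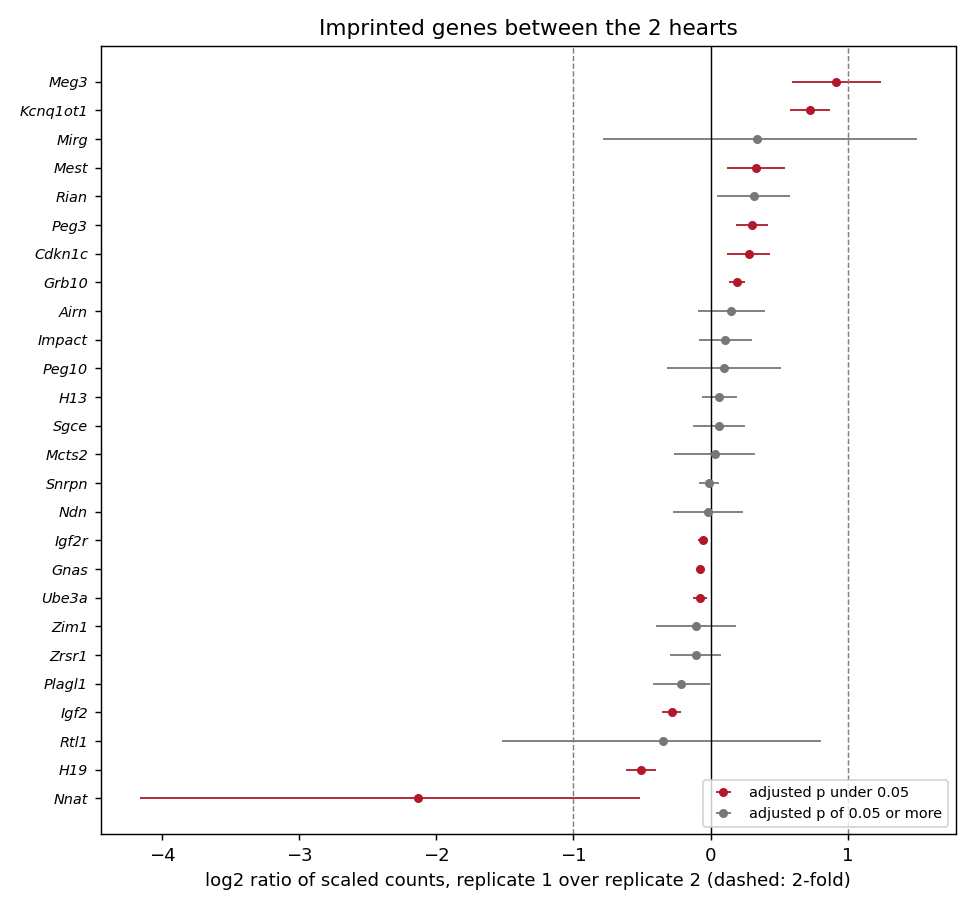
Log2 ratio of scaled counts, replicate 1 over replicate 2, for the 26 imprinted genes compared, with exact 95% intervals (counting error only) and red for an adjusted p under 0.05. No interval lies wholly beyond 2-fold (dashed lines), Meg3 and Kcnq1ot1 lie farthest to the right, Nnat has 4 and 17 counts, and Igf2r, Gnas, Ube3a, Zim1, Snrpn, Ndn and Zrsr1 change side when ERCC totals set the scale.

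By the parental copy known to be expressed, 6 of 9 maternal genes were detected, with a median over the 9 of 4.86 TPM in replicate 1, against 2.14 TPM in replicate 2. Of 21 paternal genes 11 were detected, with a median over the 21 of 2.14 and 2.03 TPM. Meg3 was the middle gene of the maternal set in replicate 1, and the median moved with it. Higher scaled counts in replicate 1 were seen for 4 of the 7 maternal genes compared and for 8 of the 15 paternal ones, where 3 and 7 were higher in replicate 2. With ERCC totals Igf2r and Zim1 among the maternal genes and Snrpn, Ndn and Zrsr1 among the paternal genes changed side, which made 6 of 7 and 11 of 15 higher in replicate 1. Summed levels were 90.28 and 83.29 TPM for maternal and 155.38 and 157.02 TPM for paternal genes. No measure of the copies themselves enters these values. RNA of the paternal copy carries CAST/EiJ sequence but was assigned to C57BL/6J sequence, and the effect of this on paternal levels was not tested.

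The read-based quantification gave 21 detected genes as well, and its levels were higher than the alignment-based ones in 18 of the 21 that were detected alignment-based. The ratio of read-based to alignment-based level had a median of 1.20 over these genes, from 0.959 for Peg3 to 1.78 for Airn, and a median of 1.17 over all detected genes. Gnas stood at 643 and 685 TPM read-based in replicates 1 and 2. The deposited TPM lay outside its own deposited interval in at least 1 animal for 12 imprinted genes, of which Rian, Mest, Plagl1 and Gnas were detected. Of 19 detected imprinted genes with more than 1 transcript, the leading transcript was the same in both animals in 19 alignment-based and in 18 read-based. It was the same by both quantifications in both animals in 14. The others were Igf2, Gnas, Snrpn, Ube3a and Zim1, so for these 5 genes the form named as leading depends on the method of quantification.

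**Figure D4:**
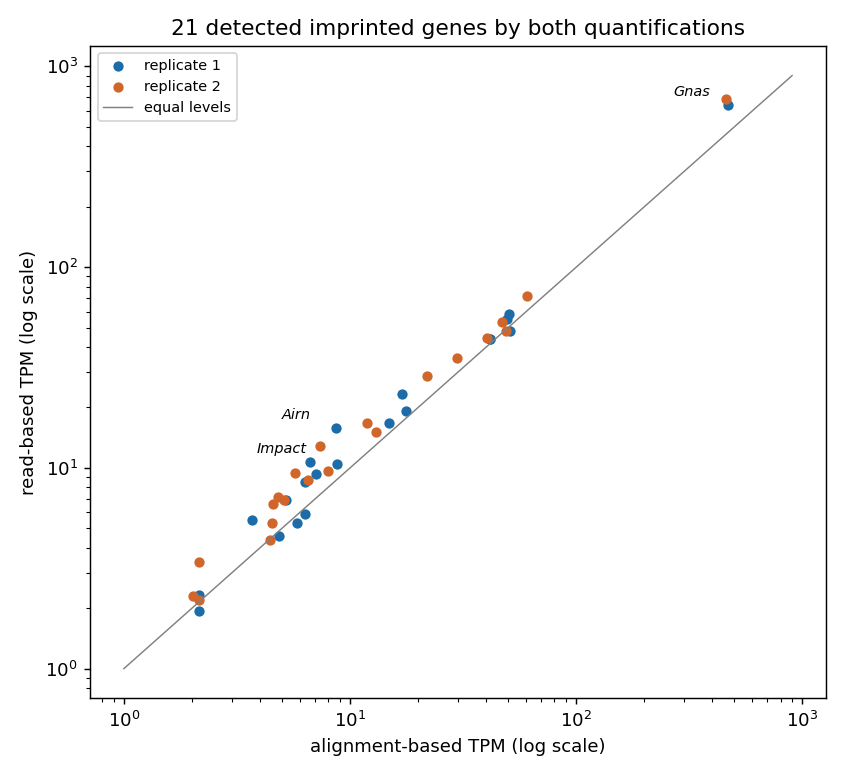
Level in TPM of the 21 detected imprinted genes in the alignment-based (horizontal) and read-based (vertical) tables, both on log axes, for replicate 1 (blue) and replicate 2 (orange), with a line of equal levels. Most points lie above the line, and Airn lies farthest from it by ratio at 8.70 against 15.8 TPM in replicate 1.

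Imprinted genes outside the set were also present. Of 54 other symbols listed as imprinted in mouse, 53 were found, the exception being an older name of Jade1, 27 were detected and 41 had enough counts to compare; none differed by the full criteria, and at any ratio 4 were higher in replicate 1 and 3 in replicate 2 at an adjusted p under 0.05 by the exact binomial test, against 10.3% of all genes in each direction. The highest were Cd81 at 174.99 and 159.78 TPM, Snurf (listed at 0 read-based), Nap1l4 at 68.57 and 71.58 TPM, Commd1, and Herc3 at 24.33 and 28.83 TPM. Many of these are imprinted in placenta or brain only. Factors that establish or keep imprints were measured as a list of 20 genes, of which 15 were detected. Dnmt3a, a DNA methyltransferase, stood at 36.59 and 36.03 TPM, and Trim28, the corepressor recruited to methylated imprints, at 37.01 and 34.39 TPM. Zfp445, a zinc finger protein that keeps imprints, stood at 34.04 and 25.50 TPM, whereas Zfp57 itself was below the detection level at 0.60 and 0.49 TPM. Naa10 and Ctcf followed at 23.66 and 24.55 TPM and at 16.77 and 15.08 TPM. Of 18 compared, 3 were higher in replicate 1 and 3 in replicate 2 at an adjusted p under 0.05 by the same test, beside the same 10.3% of all genes in each direction. Uhrf1, which guides methylation of newly copied DNA, had 158 counts in replicate 1 and 61 in replicate 2, in the direction of the cell division markers, whose part in this was not tested, and was named after its values were seen. Of the network of growth genes linked to Plagl1, 13 of 14 found were detected, all but Dlk1, and 5 were higher in replicate 1 and 5 in replicate 2 at that level, but all except Slc38a4 belong to the 34, and Gnas and Igf2r changed side with ERCC totals.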

How the data were processed

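Total RNA of 2 hearts was quantified by the authors in 2 ways on mm10 with GENCODE M21, per the deposited file listings: gene and transcript tables from transcriptome alignments, and a transcript table from 1 FASTQ file, called read-based here. The sources used here name no aligner, counter or strand setting. The deposited expected counts of the alignments and estimated counts of the read-based tables are unnormalized reads per entry, per the file headers. The TPM deposited by the authors covers every entry with the spike-ins, so a shift in abundant RNAs moves it. The score columns deposited give bounds of a credibility interval of TPM, and the percent column deposited gives a transcript's share of its gene, per the file headers.

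Genes were matched by symbol, and read-based transcripts were summed to genes. Detection was 1 TPM in both animals. Rounded counts, scaled with TMM factors of edgeR 4.0.16 (R 4.3.3) and with a mean of at least 10, were compared by a two-sided exact binomial test, with Benjamini-Hochberg adjustment over all genes. A gene differed at an adjusted p under 0.05 if its ratio was 2 or more and its credibility intervals were apart. Ratio intervals (95%) and floors of 3 counts cover counting error only. Level differences used a pseudocount of 0.1. Starts within 500 bases were joined, and those within 250 bases of a RefSeq start were matched to it. Tables were handled with pandas 2.3.3 and numpy 2.4.6 under Python 3.11.15, tests run with scipy 1.17.1 and plots drawn with matplotlib 3.10.9.

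Members, lists and pairs were chosen with earlier results of these data known. All 34 genes were to be named, with the 5 highest of each related list, the highest of each cell list, called genes and transcripts at 5% or more of a member. Igf1, Igf1r, Igf2bp1, Igf2bp2, Igf2bp3, Uhrf1, Zfp57, Zrsr2, Slc38a4, Snhg14, Igf2os and the nuclear long RNAs were named outside that rule, after their values were seen. Alternatives were the read-based tables, posterior mean TPM, rescaled TPM, other thresholds and pseudocounts, size factors of DESeq2 1.42.0, total counts, ERCC totals and each animal alone. Allele-specific signal was not analysed here.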

Additional observations from a re-analysis of the deposited data

How the results depend on the processing

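Detection changed little with the animal or the scale: 21 imprinted genes were detected with either animal alone (21 to 21) and 22 with rescaled TPM. It depended on the threshold, with 14 detected at 5 TPM. Imprinted genes counted as differing between the animals, 0 in the comparison as reported, were 1 with ERCC totals (Meg3), 1 without separate credibility intervals (Nnat), 2 at a ratio of at least 1.5 (Kcnq1ot1 and Meg3, where 1.96% of all genes passed) and 7 at any ratio. All genes counted as differing, 127 as reported (80 higher in replicate 1 and 47 in replicate 2), were 334 read-based, 288 without separate intervals, 25 at a mean count of at least 100, 311 at a ratio of at least 1.5 (219 and 92) and 1354 at any ratio (1063 and 291). ERCC totals raised all log2 ratios by 0.11 and gave 116 genes higher in replicate 1 and 46 in replicate 2. Changes of sign were limited to ratios near 1. With ERCC totals the log2 ratio was 0.055 for Igf2r, 0.0019 for Zim1, 0.034 for Gnas, 0.10 for Snrpn, 0.089 for Ndn, 0.029 for Ube3a and 2.4e-05 for Zrsr1, and Igf2r, Gnas and Snrpn passed the test on that side (adjusted p of 0.0146, 0.0295 and 0.0360, exact binomial test). Snrpn and Ndn were at 0.0078 and 0.00043 with DESeq2 size factors and at 0.027 and 0.020 with total counts. Ube3a over Snrpn, 0.05 on the log2 scale, was -0.18 read-based. The median level of maternal genes was 8.93 TPM rescaled and 2.14 to 4.86 TPM with an animal left out. For paternal genes it was 2.31 TPM read-based, 5.35 TPM rescaled and 2.03 to 2.14 TPM with an animal left out. Rescaling divides by a smaller total, and the cause of the other shifts was not tested. Leaving out an animal gives no leading transcript beyond that of the other animal. No paired analysis was possible because there is only 1 group. Genes under 10 counts, such as Dlk1 and Usp29, were too shallow to compare.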
